A study of Mus musculus with 8 samples.

Results

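The immediate early and dissociation stress genes are a list of 39 genes, of the 31053 genes in the count tables, that cells switch on within minutes to hours of a stimulus or of being taken out of tissue. The members were given by symbol, with no threshold on a measured value, and all 39 were found. They were read in 5 role groups: 7 AP-1 genes, 12 other inducible transcription factors and early response genes, 7 feedback inhibitors, 7 genes of growth arrest and survival, and 6 heat shock genes.

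The study measured single cells from the adult mouse dentate gyrus, the part of the hippocampus that forms neurons throughout life. Male Nestin-GFP mice, in which the promoter of Nestin drives GFP in neural stem cells and in other cells where that promoter is active, had either a sham craniotomy (Control) or a unilateral controlled cortical impact (TBI, traumatic brain injury) at 8 weeks of age, and both groups carried the transgene. On day 15 the ipsilateral dentate gyri were microdissected, dissociated with enzymes and by mechanical force, and sorted for live GFP+ cells. The animals of a condition were pooled, the labels list 4 per condition, and each condition gave 1 library. The methods of the study give other numbers of animals, and the difference was not resolved here. The difference between conditions and the difference between 2 preparations therefore cannot be told apart, and no test over animals was possible. Intervals for levels and ratios cover counting error only. Intervals for shares of cells treat the cells of 1 pooled library as independent draws. Neither kind covers differences between animals or preparations, so intervals that do not overlap are no test of a condition.

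An immediate early gene is transcribed by factors that are already present in the cell, so its RNA appears without new protein synthesis. AP-1 is a dimer of Fos and Jun family proteins that binds DNA and drives later genes, whereas the feedback inhibitors switch the same signals off by dephosphorylating kinases, destabilising RNA or holding NF-kappaB in the cytoplasm. The inducible heat shock genes respond to unfolded protein through heat shock factor 1, and the constitutive ones fold proteins in every cell. Enzymatic digestion of tissue is known to induce many of these genes, and no undigested sample was analysed here, so RNA made in the animal and RNA made during handling cannot be told apart.

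Promoters are shown for 5 members, because Fos, Dusp1 and Btg2 had similar patterns across cell classes, while Hspa1a and Hspa1b have nearly the same sequence. Fosb and Jun, whose patterns were also like that of Fos, are not shown. Each run holds the 250 bases before the start of transcription (RefSeq, GRCm38.p6), and 32 of the 39 members had an entry in the table. The unmatched members were Egr1, Egr3, Cebpd, Ier2, Phlda1, Hsp90aa1 and Hspa8. In Fos the capitals mark TGACGT, the shorter form of the cyclic AMP response element, and TATAAA, in Dusp1 they mark TGACGT and the full element TGACGTCA, in Btg2 the full element, and in the 2 Hspa1 genes they mark GAANNTTC, a core of the heat shock element.
Fos (chr12:85473640-85473889, + strand): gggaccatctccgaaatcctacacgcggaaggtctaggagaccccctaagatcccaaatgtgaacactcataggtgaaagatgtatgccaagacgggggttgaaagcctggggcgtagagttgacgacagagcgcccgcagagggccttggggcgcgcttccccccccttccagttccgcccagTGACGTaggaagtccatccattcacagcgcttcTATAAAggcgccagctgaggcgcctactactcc
Dusp1 (chr17:26508473-26508722, - strand): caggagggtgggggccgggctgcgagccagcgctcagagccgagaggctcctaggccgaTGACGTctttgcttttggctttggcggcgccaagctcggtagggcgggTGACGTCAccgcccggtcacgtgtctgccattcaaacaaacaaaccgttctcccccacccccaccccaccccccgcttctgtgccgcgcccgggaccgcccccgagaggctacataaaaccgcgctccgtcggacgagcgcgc
Btg2 (chr1:134079156-134079405, - strand): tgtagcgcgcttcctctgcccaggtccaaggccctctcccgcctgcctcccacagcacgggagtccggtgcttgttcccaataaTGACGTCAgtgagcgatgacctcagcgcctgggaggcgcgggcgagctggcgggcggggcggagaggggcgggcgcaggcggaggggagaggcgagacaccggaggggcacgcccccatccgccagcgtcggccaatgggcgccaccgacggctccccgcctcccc
Hspa1a (chr17:34972157-34972406, - strand): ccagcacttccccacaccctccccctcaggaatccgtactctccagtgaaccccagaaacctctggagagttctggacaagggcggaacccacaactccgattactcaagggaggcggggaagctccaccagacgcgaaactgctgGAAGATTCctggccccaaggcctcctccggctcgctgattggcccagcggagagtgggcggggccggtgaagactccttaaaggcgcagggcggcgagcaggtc
Hspa1b (chr17:34959239-34959488, - strand): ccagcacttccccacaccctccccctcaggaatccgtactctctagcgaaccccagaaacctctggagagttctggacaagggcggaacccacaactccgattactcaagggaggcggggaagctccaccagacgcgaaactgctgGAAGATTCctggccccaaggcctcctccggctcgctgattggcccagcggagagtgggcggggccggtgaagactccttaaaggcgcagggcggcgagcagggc

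Both strands were searched over the same 250 bases of 27025 genes. A gene with several listed starts was counted once, when any of them had a match. TGACGT, which every TGACGTCA also contains, was present in 7 of the 32 members (21.9%) and in 7.29% of all genes searched, and the 7 were Atf3, Btg1, Btg2, Dusp1, Egr2, Fos and Ppp1r15a. Fosb and Jun had no TGACGT, and their patterns were closer to that of Fos than the pattern of Dusp1 was (Pearson's r 0.93 and 0.90, against 0.89). A link between this element and the patterns was not tested. The full TGACGTCA was present in 3 members, Btg2, Dusp1 and Ppp1r15a, and in 1.77% of all genes searched. In Fos, TGACGT began 66 bases and TATAAA 33 bases before the start. GAANNTTC was present in 4 members, Fosl2, Jun, Hspa1a and Hspa1b, against 7.73% of all genes searched, and it began 104 bases before the start in both Hspa1 genes. The AP-1 element TGANTCA was in 0 of the 32 members and in 7.82% of all genes searched, the CArG box bound by serum response factor in Egr2 and Zfp36 and in 1.62%, and TATAAA in 5 members and in 14.3%. These are matches of letters in a short window. The promoters of Hspa1a and Hspa1b were identical at 247 of 250 bases, and because the transcribed parts of both genes are also very similar, the split of reads between them is uncertain. No member overlapped another measured gene on its own strand in the GENCODE vM21 annotation (GRCm38).

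After filtering, 3048 Control and 5033 TBI cells were kept, with 24629018 and 31501853 unique molecular identifiers (UMIs, each marking 1 captured RNA molecule). The median cell held 6933 UMIs in Control and 5676 in TBI, doublet calls were 1.35% and 2.17%, and 3 cell barcodes occurred in both libraries. Clusters made without the members fell into 9 cell classes named from markers: 36 of 41 clusters, each with at least 6 markers of its class detected, were named, and 141 Control and 169 TBI cells stayed unnamed. Hemoglobin RNA was higher in the Control library (1234 against 216 UMIs per 1000000). Levels are given as CPM, the UMIs of a gene summed over the cells of a class in 1 library per 1000000 UMIs of all genes except Malat1. A UMI counts a molecule once from its 3' end, so levels were not divided by gene length.

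The AP-1 genes were highest in microglia, endothelial cells and mural cells (the pericytes and smooth muscle cells of the vessel wall). They were intermediate in the class named neural stem cells (NSCs), radial glia-like (RG-like) cells and neuron-like cells, and low in oligodendrocytes and astrocyte-like cells. Summed over the 7 genes, the Control level was 20577 CPM in microglia, 10587 in endothelial and 10493 in mural cells, and it was 3960 in RG-like cells, 2771 in NSCs and 2376 in neuron-like cells. It was 1079 in oligodendrocytes, 809 in oligodendrocyte precursors (OPCs) and 594 in astrocyte-like cells. The order of the classes was therefore a vascular and immune group above the neurogenic lineage, with the other glia last, and the counting intervals of endothelial and mural cells overlapped in Control. The NSC class was named from a list of cycling and neurogenic markers that includes Mki67, Top2a, Cdk1, Neurog2 and Sox11. Its largest cluster, 233 of 707 cells, was led by Neurog2, Eomes and Neurod4. That cluster scored 0.79 for the NSC markers and 0.78 for the RG-like markers. The name therefore stands for this marker list and not for stem cells alone.

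Within the family, the genes did not share 1 pattern. Fos, which binds DNA as a dimer with a Jun protein, was highest in mural cells (3467 CPM in Control, 4104 in TBI), followed in Control by microglia (2324) and endothelial cells (1618) and in TBI by endothelial cells (1908) and microglia (1189.8). Jun, its main partner, was highest in microglia (6475 and 4817), and so was Junb (5973 and 5657), a Jun protein that can restrain Jun. Jund, a more constitutive Jun protein, ranged from 253 CPM in astrocyte-like cells of Control to 3261 in endothelial cells of Control. Atf3, a repressor induced by many stresses, was highest in microglia (2614 and 2947), with 613 and 417 CPM in mural cells, 178 and 281 in endothelial cells and under 10 CPM in every neural class of both libraries. Fosb reached 938 CPM in TBI mural cells, whereas Fosl2 did not pass 78.6 CPM in any class.

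**Figure D1:**
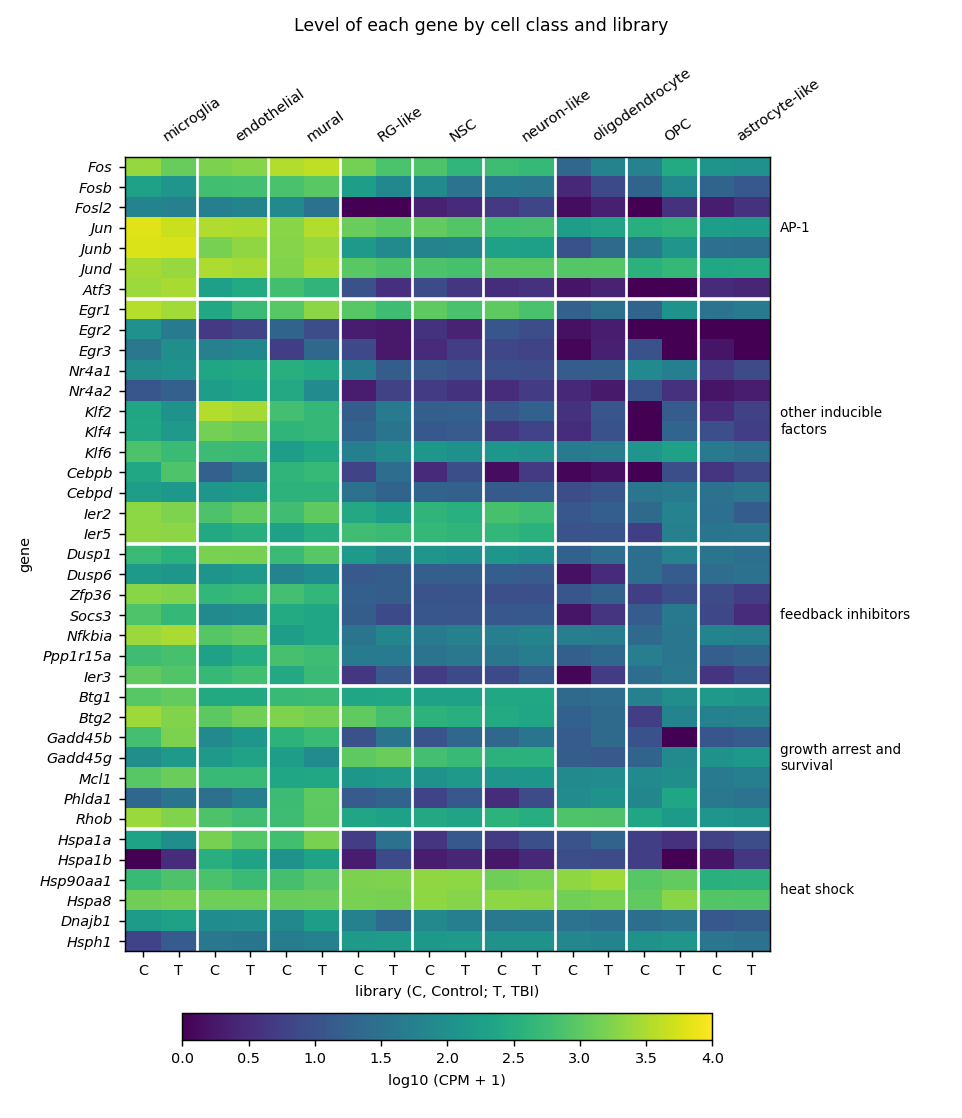
Level of each of the 39 genes (vertical axis, grouped by role) in each cell class for the Control (C) and TBI (T) library; colour is log10 of CPM plus 1. AP-1 genes are brightest in microglia, endothelial and mural cells (20577, 10587 and 10493 CPM summed in Control), and Hsp90aa1 and Hspa8 are bright in nearly all classes.

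Several other inducible factors were marked by cell class. Klf2 and Klf4, endothelial factors induced by blood flow, were highest in endothelial cells, with 3472 CPM of Klf2 in Control and 2934 in TBI and 1481 and 1257 CPM of Klf4. Egr1, a zinc finger factor that follows growth factor signalling, was highest in microglia (3581 and 2761), and its Control level in NSCs (1031) and neuron-like cells (1026) was more than 4 times that in endothelial cells (239). In this it differed from Fos, which was lower in NSCs than in endothelial cells. The Egr1 contrast was smaller in TBI, where Egr1 was lower in NSCs and neuron-like cells and higher in endothelial cells than in Control. Ier2 and Ier5, early response genes, were also highest in microglia (2054 and 2197 CPM in Control), with 679 and 443 CPM in neuron-like cells. Nr4a1, an orphan nuclear receptor, stayed at or under 322 CPM, Nr4a2 at or under 255 CPM, both with their highest level in Control mural cells, and Egr2 and Egr3 stayed at or under 106 and 96 CPM. Klf6 was highest in microglia (771 and 527), Cebpb in microglia of TBI (243 and 792) and Cebpd in mural cells (379 and 379.9).

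The feedback inhibitors were low in all neural classes and high in vascular and immune cells. Their sum was 238 CPM in NSCs, 255 in neuron-like and 266 in RG-like cells of Control, against 2638 in mural cells, 3781 in endothelial cells and 7521 in microglia. Dusp1, a phosphatase of stress-activated kinases, peaked in endothelial cells (1583 and 1504), and Nfkbia, the inhibitor of NF-kappaB, peaked in microglia (2525 and 3094). Zfp36, which destabilises AU-rich cytokine RNA, was also highest in microglia (1912 and 1755), as was Socs3, the inhibitor of cytokine receptor signalling (792 and 464). Ier3 was 1051 and 808 CPM there, Ppp1r15a was highest in Control mural cells (688), and Dusp6, a phosphatase of ERK, stayed at or under 142 CPM. The ratio of AP-1 to feedback inhibitor RNA thus differed by class: NSCs held 2771 CPM of the former and 238 of the latter, and microglia 20577 and 7521.

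Among the genes of growth arrest and survival, Btg2, an antiproliferative gene, was highest in microglia (2625 and 1768) and mural cells (1662 and 1478), and reached 1051 CPM in RG-like cells of Control. Gadd45g, a stress sensor that is also a known target of proneural factors, had its highest level in RG-like cells (1023 and 1214), and it was 637 and 501 in NSCs. Rhob, an early response GTPase, was 782 and 760.4 CPM in oligodendrocytes, where most other members were low. Phlda1 was highest in mural cells (547 and 1024), and Mcl1, an anti-apoptotic Bcl2 relative, in microglia (929.5 and 1217). Btg1 and Gadd45b were also highest in microglia, at 924 and 1080.4 CPM and at 644 and 1649.7 CPM.

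The heat shock genes split into inducible and constitutive members. Hspa1a and Hspa1b, the inducible Hsp70 genes, were highest in vessel cells: Hspa1a was 1519 CPM in endothelial cells and 622 in mural cells of Control, 206 in microglia, and at or under 9.52 CPM in every other class of Control. Cells were thinned to 2000 UMIs, and cells with fewer were left out. In Control these were 41 of 292 endothelial and 146 of 756 astrocyte-like cells. Of the remaining Control cells, 57.4% of endothelial cells (95% exact binomial interval 51.0 to 63.6) had an Hspa1a UMI, compared with 0.492% of astrocyte-like cells at the same depth (0.102 to 1.43). Hsp90aa1, the inducible form of Hsp90 that brain cells also express without stress, was highest in oligodendrocytes (2182 and 2717) and NSCs (2161 and 2059), and Hspa8, the constitutive Hsp70, lay between 809 and 2119 CPM in all 9 classes of both libraries. Dnajb1 and Hsph1, co-chaperones of Hsp70, stayed at or under 194 and 158 CPM.

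For TBI against Control, a gene was compared in a class when it had at least 100 UMIs over both libraries, and 1.5-fold was the limit for calling it higher or lower. This count of genes past a limit is a description, not a test. Of the members compared, 12 of 37 were past the limit upwards in mural cells, where 7.06% of all genes compared were, and 3 downwards (5.04%). In endothelial cells 6 of 38 were higher (1.59% of all genes) and 2 lower (0.942%), and in oligodendrocytes 7 of 28 were higher (0.964%) and 0 lower (0.825%). In RG-like cells 2 of 19 were higher (1.99%) and 7 lower (1.34%). In the other classes the counts were small: 1 of 27 higher (1.99%) and 2 lower (1.74%) in NSCs, 3 of 30 (0.923%) and 0 (1.08%) in neuron-like cells, 0 of 21 (0.864%) and 1 (1.57%) in astrocyte-like cells, 3 of 25 (4.58%) and 3 (5.01%) in microglia, and 3 of 7 (19.4%) and 0 (10.8%) in OPCs. The median log2 ratio of the members was 0.37 in mural cells, 0.31 in oligodendrocytes, 0.25 in endothelial cells, -0.18 in NSCs and -0.28 in RG-like cells, while the median of all genes compared lay between -0.01 and 0.10 in those 5 classes.

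**Figure D2:**
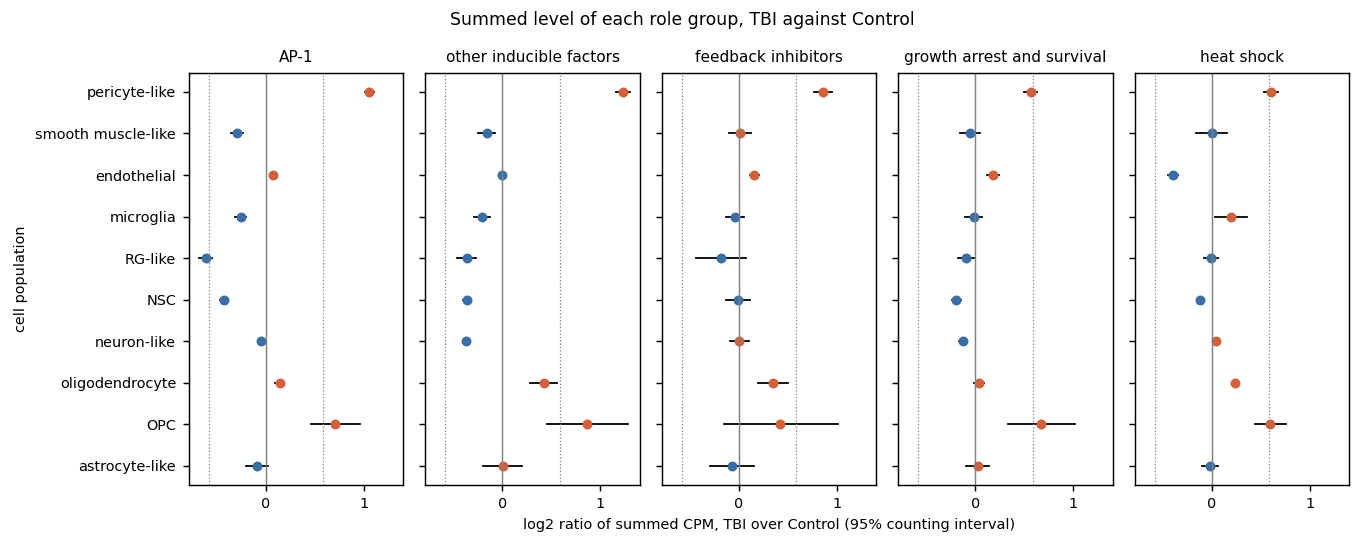
Log2 ratio (horizontal axis) of the summed CPM of each role group in TBI over Control, by cell population; points are the ratios (red above 0, blue below), bars the 95% counting intervals, and dotted lines the 1.5-fold limits. Pericyte-like cells lie above 0 in all 5 groups (AP-1 1.06), RG-like cells and NSCs lie below 0 for AP-1 (-0.62 and -0.43), and endothelial cells lie below 0 for heat shock (-0.39).

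The mural class held 2 kinds of cells that behaved differently, and they were separated after the values had been seen. Clusters were split by whether pericyte or smooth muscle markers summed higher: 212 Control and 608 TBI cells in 3 clusters were pericyte-like (Kcnj8, Abcc9, Vtn), and 47 and 38 cells in 1 cluster were smooth muscle-like (Acta2, Tagln, Myh11). The smooth muscle-like cluster made up 18.1% of Control mural cells and 5.88% of TBI mural cells. Its AP-1 level in Control was 17276 CPM, against 6857 in pericyte-like cells, so the ratio of the whole class depended on this makeup: the summed AP-1 level of all mural cells was 10493 CPM in Control and 14239.5 in TBI (log2 ratio 0.44, 95% counting interval 0.41 to 0.47), and without the smooth muscle-like cells the log2 ratio was 1.06 (1.01 to 1.10).

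In pericyte-like cells more members were higher in TBI than in any other population. Of 34 members compared, 22 were past 1.5-fold upwards, where 3.1% of all genes compared were, and 0 downwards (2.36%), and the median log2 ratio of the members was 0.85 against 0.02 for all genes. The 22 were 5 AP-1 genes (Fos, Fosb, Jun, Junb and Jund), 7 other inducible factors (Egr1, Klf2, Klf4, Klf6, Cebpb, Ier2 and Ier5), 5 feedback inhibitors (Dusp1, Zfp36, Socs3, Ppp1r15a and Ier3), 3 genes of growth arrest and survival (Btg2, Gadd45b and Rhob) and 2 heat shock genes (Hspa1a and Dnajb1). The 5 members with fewer than 100 UMIs were Fosl2, Egr2, Egr3, Nr4a2 and Gadd45g.

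Fos in pericyte-like cells was 1898 CPM in Control and 4061 in TBI (log2 ratio 1.10, 1.02 to 1.18). Egr1 was 709 and 2085 (1.56, 1.43 to 1.69), and Klf4 was 138 and 441 (1.68, 1.38 to 1.99), the largest ratio among the compared members. Among the feedback inhibitors, of which 5 of 7 were past the limit, Dusp1 was 432 and 943 CPM (1.13, 0.96 to 1.30). Hspa1a was 791 and 1711 (1.11, 0.99 to 1.24), whereas constitutive Hspa8 was 1147 and 1262 (0.14, 0.02 to 0.25). Atf3 (238 and 338), Btg1 (475 and 538), Nfkbia (176 and 219) and Mcl1 (193 and 230) stayed inside the 1.5-fold limit.

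The 3 pericyte-like clusters all had more AP-1 RNA in TBI, but by different amounts. In the cluster led by Kcnj8 it was 3623 CPM in Control and 13392 in TBI (log2 1.89), in the cluster led by Cxcl1 10616 and 19878 (0.90), and in the cluster led by Vtn 11484 and 12992 (0.18). The makeup also differed: the Kcnj8 cluster held 124 Control and 213 TBI cells, the Cxcl1 cluster 32 and 73, and the Vtn cluster 56 and 322. The part of this makeup in the ratios pooled over the clusters was not tested. Without the Kcnj8 cluster the log2 ratio of the other pericyte-like cells was 0.43 and 7 members were past 1.5-fold upwards. The share of all genes past the limit was not computed for this smaller set, so the 7 cannot be set against it. Beside this, all 8 oligodendrocyte markers and all 10 astrocyte markers were lower in TBI pericyte-like cells (934 against 353 and 794 against 271 CPM summed). Not every list went this way. Neuron-like markers summed to 38.1 CPM in Control and 97.9 in TBI, with 9 of 10 higher in TBI, and NSC markers to 185 and 264, with 8 of 10 higher. Smooth muscle markers were 3747 and 1983 CPM, and the median cell held 3674.5 UMIs in Control and 3103 in TBI. Their part in the result was not tested.

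Cell by cell, the AP-1 level of pericyte-like cells had 2 ends rather than 1 centre. Cells with at least 2000 UMIs were thinned to that depth. A cell was put in the high range when it then held 10 or more AP-1 UMIs, a limit set after the distribution had been seen. This range held 40 of 196 Control cells (20.4%, 95% exact binomial interval 15.0 to 26.7) and 259 of 564 TBI cells (45.9%, 41.8 to 50.1), and the cells near the limit, with 5 to 14 AP-1 UMIs, were 11 and 63. The median cell of the high range held 42 AP-1 UMIs in Control and 46 in TBI, and the median cell below it held 1 in both. Pooled over the clusters, the libraries thus differed in the share of cells in the high range and little in the median level within it. By cluster, the share was 11.3% and 46.0% in the Kcnj8 cluster, 48.4% and 65.8% in the Cxcl1 cluster, and 26.8% and 40.7% in the Vtn cluster. The median within the high range was 37.5 and 43 AP-1 UMIs in the Kcnj8 cluster and 35 and 44 in the Cxcl1 cluster. In the Vtn cluster it went the other way, with 79 in 11 Control cells and 51.5 in 114 TBI cells.

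The other role groups followed the AP-1 range in the same cells. Cells of the high range held on average 5.05 Egr1 UMIs in Control and 7.23 in TBI, and cells below it 0.135 and 0.239. For Hspa1a the averages were 5.8 and 6.0 UMIs in the high range and 0.263 and 0.456 below it. Dusp1 averaged 3.33 and 3.11 UMIs in the high range and 0.128 and 0.154 below it. Hspa8 differed less, with 3.38 and 3.36 against 1.71 and 1.31 UMIs. Cells of the high range were somewhat deeper before thinning (median 4314.5 against 3674.5 UMIs in Control, 3475 against 2878 in TBI) and had a lower mitochondrial share (3.31% against 4.73%, and 3.21% against 4.96%), and the part of these differences was not tested.

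**Figure D3:**
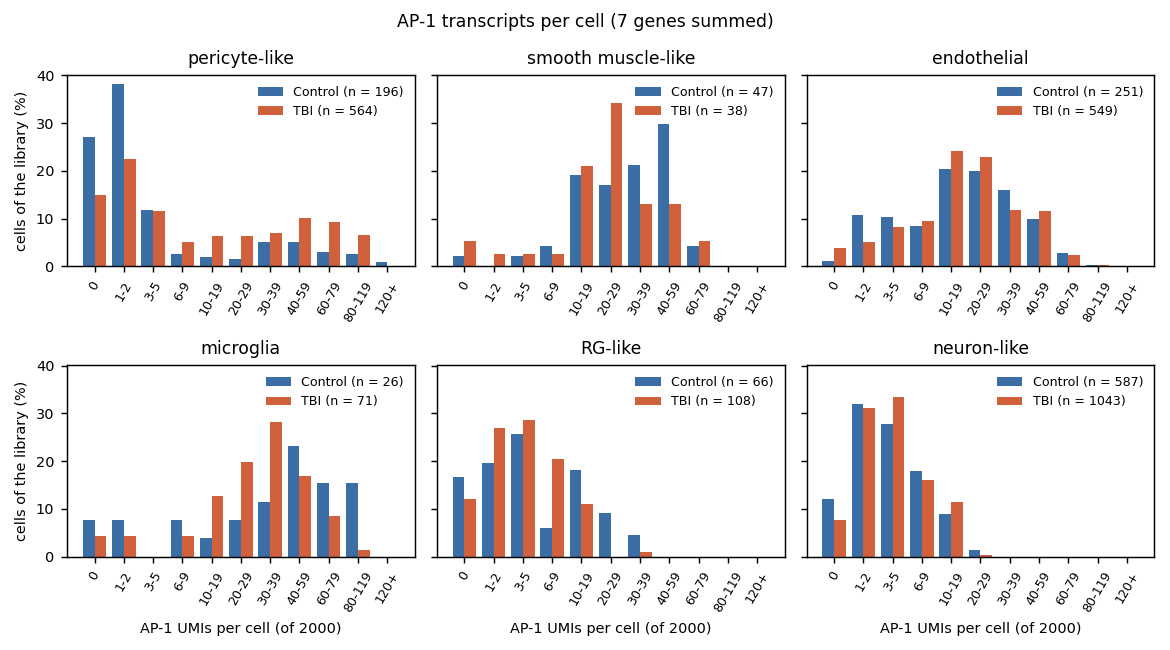
Share of cells (vertical axis, % of the library's cells in that population) by number of AP-1 UMIs per cell after thinning to 2000 UMIs (horizontal axis, unequal bins), for Control and TBI. Pericyte-like cells form a peak at 0 to 2 and a broad group at 10 and above that holds 20.4% of Control and 45.9% of TBI cells, whereas smooth muscle-like cells and microglia lie mostly at 10 and above.

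Smooth muscle-like cells did not share this difference. Their AP-1 level was 17276 CPM in Control and 14107 in TBI (log2 ratio -0.29, -0.35 to -0.23), with 43 of 47 and 33 of 38 cells in the high range. Fos was 6394 and 4437 CPM, and Klf2 was 1520.1 and 616 (log2 -1.30, -1.58 to -1.04), while Gadd45b was 658 and 1185 (0.85, 0.60 to 1.10). Of 32 members compared, 4 were past the limit upwards (7.18% of all genes) and 5 downwards (4.17%). With so few cells, depth limited the rarer members. Pericyte markers in these cells summed to 1449 CPM in Control and 6063 in TBI, with 6 of 6 higher in TBI, and smooth muscle markers to 41963 and 32904, with 0 of 5 higher, and their part in the result was not tested.

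Endothelial cells kept their AP-1 sum and differed in single genes. The sum was 10587 CPM in Control and 11110.1 in TBI (log2 ratio 0.07, 0.04 to 0.10), and 69.3% and 73.4% of cells lay in the high range. Egr1 was 239 and 539.6 CPM (1.17, 1.00 to 1.35), and it was higher in TBI in each of the 5 endothelial clusters. Atf3 (178 and 281), Gadd45b (82.1 and 126), Cebpb (16.1 and 34.96), Phlda1 (28.6 and 51.1) and Ppp1r15a (197 and 295), a stress-induced regulator of translation, were also past 1.5-fold upwards. Klf2 and Klf4 stayed inside the limit, with log2 ratios of -0.24 and -0.24.

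The inducible Hsp70 genes went the other way in endothelial cells. Hspa1a was 1519 CPM in Control and 893 in TBI (log2 ratio -0.77, -0.85 to -0.68), and Hspa1b was 323 and 198 (-0.71). Hspa8 was 1314 and 1288 and Dnajb1 88.7 and 91.3 CPM. By cluster, Hspa1a was lower in TBI in 4 of the 5 endothelial clusters, and it was higher in the cluster led by Cldn5 (713 and 1126 CPM), which held 30 Control and 205 TBI cells. The share of endothelial cells with an Hspa1a UMI at 2000 UMIs was 57.4% in Control and 49.2% in TBI. The intervals over cells were 51.0 to 63.6 and 44.9 to 53.4, and a difference in share was not tested. Red blood cell RNA in endothelial cells was 9044 CPM in Control and 2953 in TBI, with 0 of its 4 genes higher in TBI, and mural markers were 564 and 936 CPM. Their part in the result was not tested.

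**Figure D4:**
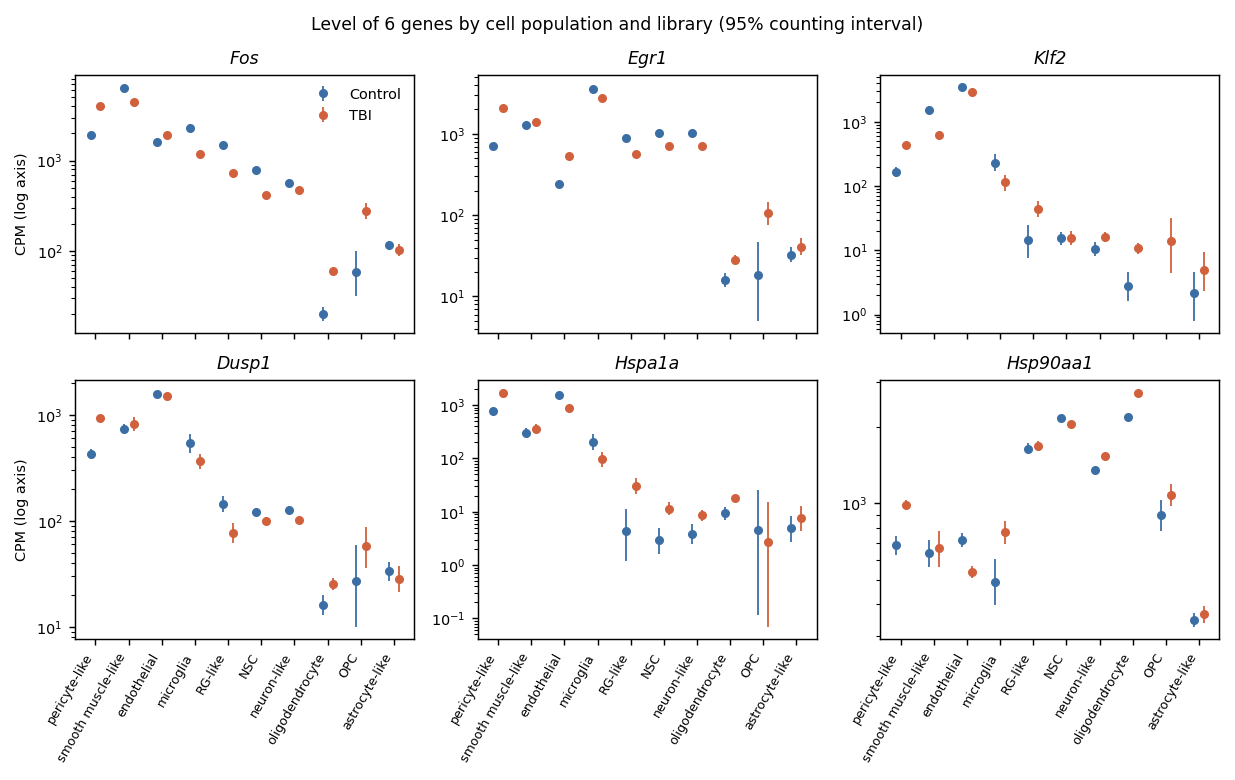
CPM (vertical log axis) of 6 members by cell population in Control and TBI; bars are 95% counting intervals, and a level of 0 (Klf2 in Control OPCs) is not drawn. Hspa1a is higher in TBI in pericyte-like cells (791 and 1711) and lower in endothelial cells (1519 and 893), and Fos is lower in RG-like cells (1474 and 731).

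In the neurogenic lineage, 3 of 5 AP-1 genes compared were past the limit downwards in RG-like cells (Fos, Fosb and Junb), where 1.34% of all genes were. In NSCs 2 of 5 were (Fos and Fosb), against 1.74% of all genes, and in neuron-like cells 0 of 5, against 1.08%. Egr1 was also past the limit downwards in RG-like cells. The AP-1 sum of RG-like cells was 3960 CPM in 66 Control cells and 2582 in 109 TBI cells (log2 ratio -0.62, -0.69 to -0.55). Without integration of the libraries the log2 ratio was -0.42, inside the 1.5-fold limit. In that setting 4 members in place of 7 were past the limit downwards, and the share of all genes past it was not computed. With thinned cells the AP-1 log2 ratio was -0.69, and 3 members were past the limit downwards. Thinning leaves fewer UMIs per gene, and the number of members that could then be compared is not given. The 3 therefore cannot be set against the 7. The levels that follow are those before thinning. Fos was 1474 and 731 (-1.01, -1.14 to -0.89), Egr1 897 and 568 (-0.66, -0.81 to -0.51), and Btg2 1051 and 662. The other members past the limit downwards were Fosb, Junb, Ier2 and Dusp1, whereas Klf6 and Nfkbia were past it upwards. The class was 1 cluster. The share of RG-like cells with a Fos UMI at 2000 UMIs was 50.0% in both libraries, but 21 of 66 Control cells and 13 of 108 TBI cells held 10 or more AP-1 UMIs (31.8%, 20.9 to 44.4, and 12.0%, 6.57 to 19.7). Many cells lay near this limit, with 5 to 14 AP-1 UMIs in 18 Control cells (27.3%) and 36 TBI cells (33.3%).

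NSCs showed the same direction at a smaller size. The AP-1 sum was 2771 CPM in Control and 2056 in TBI (log2 ratio -0.43, -0.47 to -0.39), and it was lower in TBI in each of the 4 NSC clusters. Fos was 788 and 421 (-0.90, -0.98 to -0.83) and Egr1 1031 and 706 (-0.55, -0.61 to -0.48), while the heat shock sum was 4492 and 4130.4. The makeup of the class also differed. The cluster led by Neurog2 made up 26.8% of Control and 37.4% of TBI NSCs, and the cluster led by Hist1h1b 29.5% and 19.8%. Over both libraries, Fos was 317 CPM in the former and 872 in the latter. The part of this makeup in the NSC ratios was not tested. In neuron-like cells the AP-1 sum was 2376 and 2293 (-0.05, -0.08 to -0.02) and Fos 568 and 479, but Egr1 was 1026 and 702. Egr1 was thus past the limit downwards in RG-like cells and upwards in endothelial and pericyte-like cells, and inside it in NSCs and neuron-like cells.

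Of the members that are rare in neural cells, Gadd45b was past the limit upwards in NSCs (9.67 and 20.8 CPM), where 1.99% of all genes were. In neuron-like cells the members past it upwards were Klf2, Ier3 and Gadd45b, against 0.923% of all genes. Some others had too few UMIs in NSCs or RG-like cells to be compared. Hspa1a in NSCs, on 14 and 53 UMIs, was 3.01 and 11.5 CPM. In RG-like cells Hspa1a was 4.41 and 30.6 CPM on 4 and 35 UMIs, with a UMI in 2 of 66 and 3 of 108 cells at 2000 UMIs, and Klf2 was 14.3 and 43.7 CPM on 13 and 50 UMIs. Markers of other cell types also differed in these classes. Oligodendrocyte markers summed to 162 CPM in Control and 774 in TBI RG-like cells and to 124 and 428 in NSCs, with 8 of 8 higher in TBI in both. For vessel cells, mural markers summed to 11.6 CPM in Control and 178 in TBI NSCs (7 of 8 higher in TBI) and to 13.4 and 129 in neuron-like cells, and endothelial markers to 17.6 and 103 in RG-like cells (5 of 6 higher). No mural marker was at 0 in both libraries in NSCs or neuron-like cells, and Des was in RG-like cells. Not every list went this way. Oligodendrocyte markers in neuron-like cells summed to 400 CPM in Control and 326 in TBI, with 1 of 8 higher in TBI. Astrocyte markers summed to 3089 and 2625 CPM in RG-like cells and to 837 and 718 in neuron-like cells, with 1 of 10 higher in both. Of the mural markers in RG-like cells, 4 of 8 were higher. The part of the RNA of these markers in the result was not tested.

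Astrocyte-like cells had the lowest AP-1 and heat shock sums of the 9 classes in both libraries, but 1 cluster stood above the rest. The cluster led by Hopx and Fabp7, with 56 Control and 30 TBI cells, held 2454 and 2128 CPM of AP-1 RNA and 779 and 714 of Fos, and the other astrocyte-like cells held 302 and 410 of AP-1 RNA and 11.5 and 45.7 of Fos. The AP-1 log2 ratio of the whole class was -0.09 (-0.20 to 0.02), and without the Hopx cluster it was 0.44 (0.29 to 0.59). Ier2 was the single member of the class past the limit, at 27.4 and 13.9 CPM.

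Oligodendrocytes had low levels of the 7 members that were past the limit upwards. Fos was 20.3 and 60.1 CPM (log2 ratio 1.57, 1.27 to 1.87), Junb 9.34 and 22.9, Egr1 16.04 and 28.5, Klf2 2.82 and 10.7, Dusp1 16.2 and 25.6, Gadd45b 13.4 and 23.4 and Hspa1a 9.52 and 17.8. At 2000 UMIs a Fos UMI was found in 2.00% of Control cells (1.00 to 3.56) and 4.84% of TBI cells (3.60 to 6.34), below the 4.26% and 8.45% of astrocyte-like cells at the same depth. These shares leave out the cells with fewer UMIs. They were 20 of 569 Control and 90 of 1103 TBI oligodendrocytes, and 146 of 756 and 304 of 718 astrocyte-like cells. The abundant Hsp90aa1 was 2182 and 2717 CPM. Endothelial markers in oligodendrocytes summed to 23.3 and 86.6 CPM, with 6 of 6 higher in TBI. The cluster with the highest share of TBI cells (83.0%) had 15.6% doublet calls. Without it Fos was 11.05 and 52.1 CPM and endothelial markers were 5.62 and 11.2 CPM, with 5 of 6 higher in TBI. In the 28 Control and 55 TBI OPCs Fos was 59.1 and 277 CPM on 13 and 101 UMIs, beside oligodendrocyte markers of 23292 and 5612 CPM. The part of these markers in either result was not tested.

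Microglia had the highest levels of many members and a mixed difference. The AP-1 sum was 20577 CPM in 38 Control cells and 17213 in 87 TBI cells (log2 ratio -0.26, -0.31 to -0.20), and the log2 ratio was -0.0040 when each cell counted equally. Fos was 2324 and 1189.8 (-0.97, -1.15 to -0.78), Socs3 792 and 464 and Klf4 243 and 138. In contrast Cebpb, a factor of myeloid inflammatory genes, was 243 and 792 (1.71, 1.26 to 2.18), Gadd45b 644 and 1649.7 (1.36, 1.08 to 1.64) and Hsp90aa1 491 and 768. The class held a C1qa-led cluster with 24896 and 18749 CPM of AP-1 RNA and a Lyz2-led cluster with 1649 and 3767. The median cell held 8251.5 UMIs in Control and 6751 in TBI in the former, and 1582.5 and 1657.5 in the latter. The median mitochondrial share was 3.79% and 5.14% in the former and 7.14% and 8.02% in the latter. The part of these differences was not tested. The Lyz2-led cluster made up 47.4% of Control microglia (18 cells) and 29.9% of TBI microglia (26 cells), and without it the AP-1 log2 ratio was -0.41.

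Across the 18 levels of 9 classes in 2 libraries, the members whose log2 pattern was most like that of Fos were Btg2 (Pearson's r 0.96), Fosb (0.93), Jun (0.90), Ier2 (0.90) and Dusp1 (0.89), and those least like it were Hspa8 (0.18), Phlda1 (0.11), Hsp90aa1 (-0.22) and Hsph1 (-0.23). The points share libraries and depth, so these values are descriptions. Between cells of the same class at 2000 UMIs, Fos and Junb had r of 0.90 in Control and 0.86 in TBI mural cells, and 0.54 and 0.53 in endothelial cells. Fos and Hspa1a had r of 0.55 and 0.68 in mural cells but 0.22 and 0.05 in endothelial cells. For the sums of AP-1 and heat shock RNA, r was 0.46 in Control and 0.71 in TBI mural cells, and 0.44 and 0.31 in endothelial cells. The mural values pool pericyte-like and smooth muscle-like cells, and cells inside and below the high AP-1 range, in shares that differed between the libraries. The part of this makeup in r was not tested.

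Related genes outside the list were counted by the same rule, and their difference from the members was not tested. In pericyte-like cells, where 3.1% of all genes were past 1.5-fold upwards, 9 of 21 other immediate early genes had 100 UMIs and 1 of them, Per1, was past it, with a median log2 ratio of 0.30 over the 9. Of 15 other heat shock genes, 14 were compared and 0 were past the limit, with a median log2 ratio of 0.09. Of 11 upstream regulators of these pathways, 8 were compared and 1, Nfkb1, was past it upwards. In endothelial cells, where 1.59% of all genes were past the limit upwards, 1 of 10 other immediate early genes (Csrnp1), 0 of 13 other heat shock genes and 1 of 8 upstream regulators (Hsf1, which drives the heat shock response) were past the limit upwards, and 0 of each list downwards.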

How the data were processed

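Single cells of 2 pooled 10x 3' v3 libraries, 1 per condition, were analysed. The deposited count tables hold raw UMI counts per gene and cell barcode, which the authors made with Cell Ranger 3.0.2 on GRCm38 (mm10). Each table was assigned to its condition by cell barcodes that the study lists per condition (356 of 356 and 320 of 320 found in the assigned table, 0 in the other). Cells with at least 200 genes and a log UMI total within 3 median absolute deviations of the median of their library were kept. Scrublet (scanpy 1.11.5) marked doublets, which stayed in, and leaving them out was an alternative. Cells were integrated and clustered in Seurat 5.3.0 (R 4.3.3; 2000 variable genes, 20 dimensions, resolution 3) with the 39 members and related genes left out, and clusters were named from marker lists.

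CPM were computed from summed counts in Python 3.11.15 (pandas 2.3.3, scipy 1.17.1), with exact 95% Poisson intervals for levels, exact intervals for the ratio of 2 counts and exact binomial intervals for shares. Single cells were compared after random thinning to 2000 UMIs. Log2 patterns over classes used a pseudocount of 10 CPM. The ratio calculation was tested on simulated data. Any member could be named. In each class the text names some, not all, of the members with the highest and lowest levels and ratios of each role group. The rule for these was at least 100 UMIs. Members named with fewer UMIs are given as values with their counts. Members, lists and markers were chosen with earlier results of these data known. Promoters came from RefSeq (GRCm38.p6) and gene positions from GENCODE vM21.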

Additional observations from a re-analysis of the deposited data

Results flagged for a closer look

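For 7 members, the ratio of TBI to Control was past 1.5-fold upwards in one cell class and downwards in another. The share of all genes with such opposite ratios was not computed. Whether 7 is more than among other genes therefore cannot be told. With 1 library per condition, the difference between classes was not tested. The values are the gaps between the 2 log2 ratios.

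Fos had the widest gap, 3.243, between OPCs (2.23) and RG-like cells (-1.01), and its OPC level rested on 13 Control UMIs. Junb differed by 2.187 between oligodendrocytes (1.29) and RG-like cells (-0.90), Egr1 by 1.835 between endothelial (1.17) and RG-like cells (-0.66), and Dusp1 by 1.696 between mural (0.79) and RG-like cells (-0.91). Ier2 differed by 1.759 between mural (0.78) and astrocyte-like cells (-0.98). The inducible Hsp70 genes were higher in TBI mural cells and lower in TBI endothelial cells, with gaps of 2.091 for Hspa1a (1.32 and -0.77) and 1.656 for Hspa1b (0.95 and -0.71). The mural ratios depend on the makeup of that class. In pericyte-like cells alone Hspa1a was past the limit upwards, but Hspa1b, which was also compared, was not.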

How the results depend on the processing

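No paired analysis was possible because the animals that carry the replicate numbers were pooled and their cells cannot be assigned to them, and no library could be left out. No role group with a ratio past the limit turned direction. Smaller ratios did: of 55 role group ratios, 45 kept their sign as a mean over cells, 46 when thinned and 49 without integration. Without the Hopx cluster, 2 of 5 ratios of astrocyte-like cells kept theirs. The cause of the shifts below was not tested. The log2 AP-1 ratio of pericyte-like cells (1.06) was 1.10 without integration, 1.01 as a mean over cells, and 1.43, 0.43 and 1.21 without the Vtn, Kcnj8 and Cxcl1 clusters, and their heat shock ratio (0.60) was 0.53 as a mean over cells and 0.81 and 0.32 without the Vtn and Kcnj8 clusters. The mural AP-1 ratio (0.44) was 0.52 with a mitochondrial limit of 10%, 0.40 without doublets, 0.39 with members kept in clustering, 0.38 without mitochondrial and ribosomal genes, 0.61 as a mean over cells, 0.34 centred on the median gene, 0.63 thinned, 0.54 without the cluster highest in TBI cells and 1.06 without smooth muscle-like cells. The RG-like ratio (-0.62) was -0.69 without doublets, -0.42 without integration and -0.69 thinned, and the NSC ratio (-0.43) was -0.39 as a mean over cells. The endothelial AP-1 ratio (0.07) was 0.030 as a mean over cells and 0.014 thinned, and the heat shock ratio (-0.39) was -0.45 without the cluster highest in TBI cells. The microglial ratio (-0.26) was -0.32 with the mitochondrial limit, -0.0040 as a mean over cells, -0.34 thinned and -0.41 without the Lyz2 cluster. The alternatives that leave out a named cluster, and the pericyte and smooth muscle split, were chosen after seeing the data.

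Counts of members past the limit moved more. Upwards, the 22 in pericyte-like cells became 12 at 2-fold and 7 without the Kcnj8 cluster, the 12 in mural cells 4 at 2-fold and 22 without smooth muscle-like cells, the 6 in endothelial cells 3 without doublets and 2 at 2-fold, and the 7 in oligodendrocytes 2 when thinned and 12 without integration. Downwards, the 7 in RG-like cells became 4 without integration or with members kept in clustering, 3 when thinned and 2 at 2-fold. Classes with few UMIs per gene, above all OPCs and microglia, are limited by depth. Thinning also lowers the UMIs per gene, and the numbers of members compared after it are not given. The thinned counts therefore cannot be set against the others. For the other alternatives the share of all genes past the limit was not computed. The exception is the mural class without smooth muscle-like cells, where it was 3.1% upwards. Whether the counts of members moved with those of all genes was not tested.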
